A study of Mus musculus with 4 samples.

Results

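The nuclear genes of mitochondrial oxidative phosphorylation were examined in m6A sequencing of mouse macrophages with and without Mettl3. Members were chosen by symbol, as genes whose names start with Nduf, Uqc, Atp5 or Cox4 to Cox8, together with Sdha, Sdhb, Sdhc and Sdhd, without symbols marked as pseudogenes. The annotation held 101 such genes, of which 97 were protein-coding and 4 were processed pseudogenes. Of these, 92 appeared in the peak lists, out of 14819 genes in the series, and they were the 91 coding members with a peak and the pseudogene Cox6c2. The choice used symbols and no measured value, although earlier results of these data were known when it was made. Bone marrow cells of C57BL/6 mice had been differentiated with M-CSF, the growth factor of the macrophage lineage, for 7 days. They were then co-cultured for 24 hours with MC38, a mouse colon carcinoma line. All mice carried loxP-flanked Mettl3 alleles. The WT mice were Mettl3fl/fl, and the conditional knockout (cKO) mice were LysM-cre, Mettl3fl/fl, with Cre driven by the lysozyme M promoter that is active in myeloid cells. Each genotype had 1 library of fragments bound by an m6A antibody (IP) and 1 input library taken before the pulldown. With 1 library per group there are no replicates, so each difference compares single libraries and has no replicate check.

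Oxidative phosphorylation passes electrons from NADH and succinate through complexes I, II, III and IV of the inner mitochondrial membrane to oxygen, and the proton gradient built on the way drives ATP synthesis by complex V. Most subunits are encoded in the nucleus, often by short, abundant messenger RNAs, and assembly factors put the complexes together without staying in them. N6-methyladenosine (m6A) is an internal mark of messenger RNA, written mainly by the METTL3 and METTL14 enzyme, often near stop codons and in 3′ UTRs, and read by proteins that affect RNA decay and translation. Macrophages shift the balance between glycolysis and mitochondrial respiration when they are activated.

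The labels were checked first. Mettl3 had no input value among the genes analysed here, and its peaks (2 listed for the WT and 4 for the cKO) do not test the deletion, so the genotypes were not checked by these values. Input levels were held for 7 of 10 macrophage markers, 5 lower in the cKO, among them Lyz2 (3393 FPKM in WT, 1980 in cKO) and Cd68 (695 and 634), and 2 higher, Itgam (179 and 188) and Fcgr1 (11.1 and 15.8). FPKM counts fragments in proportion to transcript length and to the mapped fragments of the library. The 7 summed to 4871 FPKM in WT and 3311 in cKO input, and without Lyz2 to 1479 and 1330. Lyz2 is the lysozyme M gene, whose promoter drives Cre in the cKO only. Its level is therefore not a marker independent of genotype, and the part of the Cre allele in it was not tested. The fibroblast list had 4 of 6 genes at a mean of at least 1 FPKM, all higher in the cKO, with summed levels of 107 (WT) and 193 (cKO). Of 7 epithelial markers only Krt19 had a value, at 7.05 and 10.8 FPKM. The neutrophil and lymphocyte lists had 1 value each, S100a8 at 12.3 and 13.7 FPKM and Cd79a at 0.970 and 0.422, and no marker with a value was listed at 0. Input values were given only for genes with a peak listed as differing between genotypes. A marker without a value may therefore still be expressed. The part of other cells in the results below was not tested. The depth of the libraries is unknown, since their total counts were not analysed here.

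Stretches of 21 bases are shown for the peaks that recur in the results, to give the sequence behind the values. Capitals mark GGAC, a common form of the site that METTL3 methylates, and each stretch holds the copy nearest the middle of the exonic part of its peak among those whose stretch lies within 1 exon. Sequences are from GENCODE M21 transcripts on mm10 and are written 5′ to 3′ on the strand of the transcript. The list opens with Uqcc3 and Cox4i2, which had peaks among the 5 strongest, followed by genes whose peak was higher in the cKO (Ndufa6, Cox8a, Cox6b1, Atp5j, Atp5g1 and the upstream Ndufab1 peak) and by Ndufa13 and Ndufaf4, whose listed differential peak was lower.
Uqcc3 (chr19:8880399-8880419, minus strand, 3′ UTR): ggtgctccGGACatggagtcg
Cox4i2 (chr2:152764801-152764821, plus strand, coding): cgcctcctGGACatgaagagc
Ndufa6 (chr15:82350316-82350336, minus strand, 3′ UTR): gaagcagcGGACacacgttat
Cox8a (chr19:7215216-7215236, minus strand, 3′ UTR): gacaactgGGACcacatgtat
Cox6b1 (chr7:30617010-30617030, minus strand, 3′ UTR): ttaccctgGGACcctgaatca
Atp5j (chr16:84828489-84828509, minus strand, coding): caagatctGGACagagagctt
Atp5g1 (chr11:96073139-96073159, minus strand, coding): aggccatgGGACtcttctgtt
Ndufab1 (chr7:122090921-122090941, minus strand, 3′ UTR): actccagaGGACacacgatgg
Ndufa13 (chr8:69902082-69902102, minus strand, 5′ UTR): tggggcggGGACcctccctcc
Ndufaf4 (chr4:24901837-24901857, plus strand, coding): agaaacatGGACtgctgagaa
The strongest peaks, in Ndufs4 and Ndufb2, and the differential peaks of Atp5g2, Ndufa1 and Atp5k held no GGAC in their exonic part, which for Atp5g2 is only 10 bases. The Cox4i1 peak held 1, too close to an exon end for a stretch to be shown. A match is a description of the letters in the window, and the absence of one says nothing more than that.

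Nearly every gene of the respiratory chain and ATP synthase carried an m6A peak in both genotypes. A peak was listed for 91 of 97 coding members in the WT (93.8%, exact Clopper-Pearson interval 87.0 to 97.7), where 54.4% of all 21951 coding genes had one, and for the same number in the cKO, where 54.6% of all did. The background includes genes that these cells do not express. The other gene lists compared below had similar shares with a WT peak. They ran from 93.2% (assembly factors outside the naming rule, with cytochrome c) to 100% (citric acid cycle genes and biogenesis regulators). All 91 had a peak in both lists. The 6 coding entries without a peak were Cox6b2, Cox7b2, Cox8b, Cox8c, Ndufaf6 and an identifier also called Atp5o that overlaps the Atp5o gene. The peak lists held 135 WT and 137 cKO peaks of members, and 103 and 98 of them lay in 3′ UTRs (76.3% and 71.5%, against 56.2% and 55.7% of all peaks).

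These peaks were of ordinary strength, with few at high enrichment. The authors' log2 IP over input had a median of 1.31 over members' WT peaks and 1.22 over all WT peaks, and of 1.41 and 1.30 in the cKO. At least 4-fold enrichment, a log2 of at least 2, was reached by 9.63% of members' WT peaks and 21.2% of all, and by 15.3% and 20.0% in the cKO. The strongest peak in both lists lay in Ndufs4, an accessory subunit of complex I, at 3.22 in WT and 4.68 in cKO. It spans introns from 114360913 to 114388000 on chromosome 13 in the WT and covers only 42 bases of the annotated transcript. Ndufb2, another accessory subunit, followed at 3.02 and 2.89 in the 3′ UTR. Uqcc3, an assembly factor of complex III, had a peak over the whole of its 821-base transcript at 2.74 and 2.85. Cox4i2, the hypoxia-responsive form of cytochrome oxidase subunit 4, was at 2.28 and 1.90. Ndufa11, a membrane subunit of complex I, was at 2.08 and 2.37. No comparison between genotypes was possible for the intronic peaks of Atp5b (2.37 in the WT) and Ndufs1 (2.65 in the cKO), since each was listed in 1 genotype.

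Most peaks of these genes were found in both genotypes, and at matched peaks the cKO value was usually the higher. Of members' WT peaks, 116 of 135 (85.9%) overlapped a cKO peak on the same strand, against 73.2% of all WT peaks, and of members' cKO peaks 115 of 137 (83.9%) overlapped a WT peak, against 71.3%. For 101 peaks in 85 members with a single partner in the other list (one-to-one matches), the cKO value was higher in 87 and lower in 14 (86.1% higher, 77.8 to 92.2), where 54.8% of all 19387 matched peaks were higher. The median log2 was 1.31 in WT and 1.55 in cKO peaks and the median difference 0.25, against 0.04 over all matched peaks. Among matched peaks that overlapped no listed differential peak, 29 of 42 peaks of members were higher, where 56.4% of all 13879 such peaks were. Which peaks are listed depends on the difference itself, so this split is a description. How IP was scaled to input is not given in the sources used here, so a gain at these peaks and a loss at other sites cannot be told apart.

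**Figure D1:**
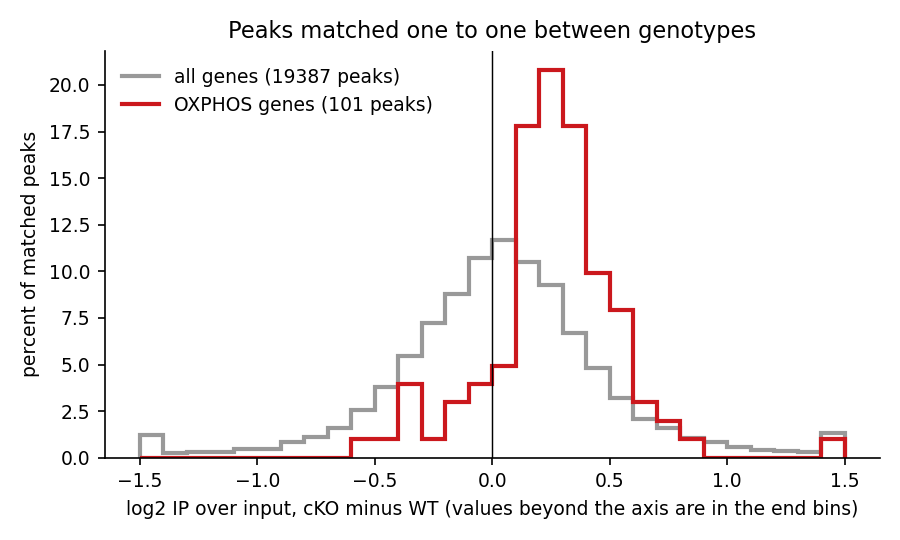
Histogram of the difference in log2 IP over input, cKO minus WT (horizontal axis), at peaks matched one to one between genotypes, as percent of matched peaks (vertical axis). The red line for the 101 peaks of oxidative phosphorylation genes lies to the right of the grey line for all 19387 peaks, with medians of 0.25 and 0.04.

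The authors' deposited table of differential peaks, which lists only peaks with p below 0.05, named 63 of the 91 coding members with a peak (69.2%, 58.7 to 78.5), where it named 54.8% of all coding genes with a peak. At an adjusted p below 0.05 it named 48 members (52.7%), against 34.4% of all. Without that threshold the authors' deposited table named 92.2% of cytosolic ribosomal protein genes with a peak, 77.3% of glycolysis genes and 65.0% of biogenesis regulators. The shares were 57.1% for assembly factors outside the naming rule, 49.4% for mitochondrial ribosomal protein genes and 40.0% for citric acid cycle genes. The 63 members had 68 listed peaks, and 62 of these were higher in the cKO and 6 lower (91.2% higher, 81.8 to 96.7), while 48.9% of all 10355 listed peaks were higher. With adjusted p below 0.05 the authors' deposited table held 51 peaks of members, 47 higher and 4 lower (92.2%, background 45.7%). In 3′ UTRs it held 62 peaks, 59 of them higher (95.2%, background 51.5%). The differences were small, with a median of 0.40 over the 68 peaks per the authors' deposited table. Higher 3′ UTR peaks of members had a median difference of 0.41, less than the 0.65 of all higher 3′ UTR peaks in the same deposited table. Only 3 peaks had an adjusted p below 0.05 and a difference of at least 1 in either direction, all in Ndufab1, with 1 higher and 2 lower (background 57.0% higher).

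**Figure D2:**
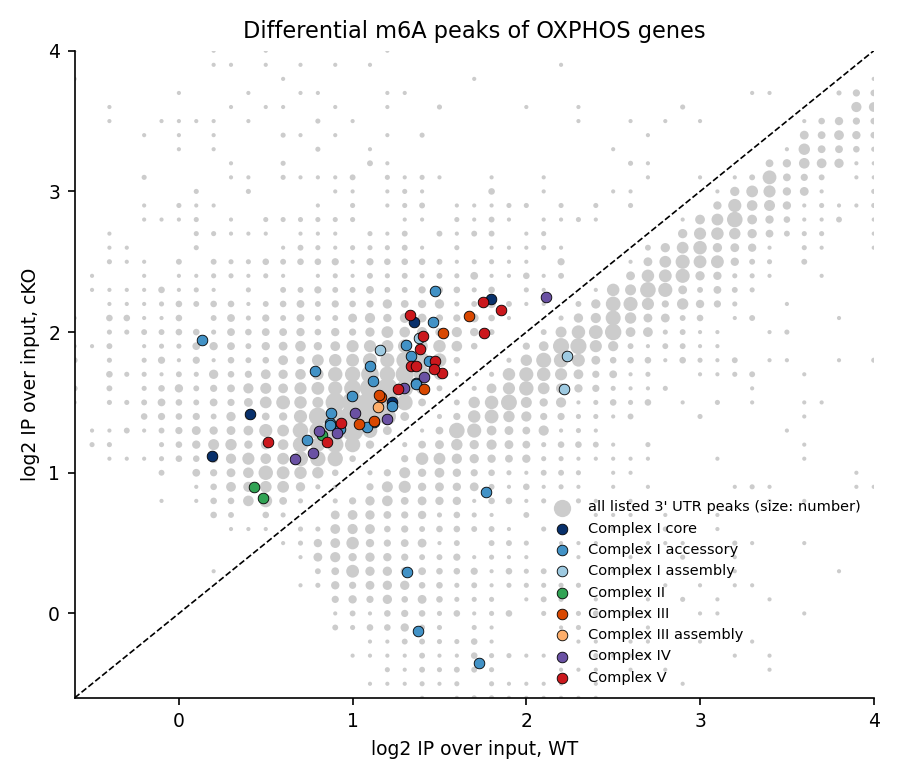
Log2 IP over input in the WT (horizontal axis) against the cKO (vertical axis) at each listed differential peak, coloured by complex, over all listed 3′ UTR peaks in grey, where the size of a point gives the number of peaks and peaks beyond the axes are left out. On the dashed line both values are equal, and 62 of the 68 coloured points lie above it.

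In complex I, which oxidises NADH, all 5 core subunits listed per the authors' deposited table had a higher cKO value. Ndufv1, which holds the NADH-binding flavin site, read 1.80 in the WT and 2.24 in the cKO, and the iron-sulphur subunit Ndufv2 1.23 and 1.5, with adjusted p of 0.170 and 0.0739 per the authors' deposited table. For Ndufs3 the listed peak lay in the 5′ UTR, at 0.41 and 1.42, and for Ndufs1 in an intron, at 0.19 and 1.12, with adjusted p of 0.0807 and 0.0970 per the authors' deposited table. The core subunits Ndufs7 and Ndufs8 had no listed differential peak.

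Accessory subunits of complex I made up the largest group, with 20 of 29 genes and 24 peaks per the authors' deposited table, 20 higher and 4 lower (median difference 0.48). At adjusted p below 0.05 there were 17 higher and 3 lower peaks. Ndufa1, a small membrane subunit, read 1.12 in the WT and 1.65 in the cKO (difference 0.53, adjusted p 6.99e-12 per the authors' deposited table). Ndufa6, an accessory subunit of the LYR protein family, read 0.74 and 1.23 (0.50, adjusted p 7.07e-10 per the authors' deposited table). The next by adjusted p per the authors' deposited table was Ndufc2, a membrane subunit, at 1.10 and 1.76 (0.66, adjusted p 1.44e-07). Among accessory subunits with a single listed peak, Ndufa10 had the largest difference past the adjusted threshold, at 0.78 and 1.73 per the authors' deposited table (0.94, adjusted p 1.59e-06). Higher at adjusted p below 0.05 per the authors' deposited table were also Ndufb10 (1.0 and 1.55), Ndufa3 (0.87 and 1.35), Ndufb9 (1.47 and 2.07), Ndufa7 (0.93 and 1.31), Ndufa5 (1.31 and 1.91) and Ndufa2 (1.37 and 1.64). The same held there for Ndufb6 (0.87 and 1.34), Ndufb8 (1.33 and 1.83), Ndufa9 (0.87 and 1.42) and Ndufb3 (1.36 and 1.63), WT value first. Each of these peaks lay in the 3′ UTR. The strongest WT peak of Ndufb8, elsewhere in the 3′ UTR, was lower in the cKO in the separate lists (1.90 in WT, 1.40 in cKO).

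The 6 lower listed differential peaks were all in complex I genes (subunits and assembly factors), and 3 of the 6 had a higher listed peak in the same gene. Matched peaks not listed as differential were also lower outside complex I, as in Sdha (1.97 in WT, 1.62 in cKO) and Cox4i2 (2.28 and 1.90). Ndufab1 encodes the mitochondrial acyl carrier protein, which serves fatty acid synthesis as well as complex I. The authors' deposited table gave it 4 peaks, all annotated to 3′ UTR. At chr7:122090646-122091581 it read 1.48 in the WT and 2.29 in the cKO, and at chr7:122085853-122086077 it read 0.14 and 1.94, per the authors' deposited table (adjusted p 0.00420 and 0.0219). Between them, chr7:122088253-122088571 read 1.73 and -0.35 and chr7:122087978-122088202 read 1.38 and -0.12, per the authors' deposited table (adjusted p 0.0145 and 0.0152). The middle pair lay inside a WT peak with no cKO peak overlapping it. Ndufv3, an accessory subunit with a long and a short protein form, had a higher 3′ UTR peak, 1.44 and 1.80, and a lower intronic one, 1.31 and 0.29, per the authors' deposited table (adjusted p 4.97e-05 and 0.0838).

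For Ndufa13, also known as GRIM-19, the sources differed in direction. The authors' deposited table of differential peaks gave its 5′ UTR peak as 1.77 in the WT and 0.87 in the cKO (difference -0.90, adjusted p 0.0239). In the separate peak lists the 5′ UTR peak read 1.80 for WT and 2.00 for cKO, over slightly different ends. Its direction is therefore not settled by these files. For some other members the sources differed in size, over peak ends that were not the same. The difference was 0.41 for Cox4i1 and 0.37 for Cox6b1 per the authors' deposited table, and 0.18 and 0.11 in the separate lists. For others it was close, as for Ndufa1 (0.53 and 0.55).

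Assembly factors of complex I did not share a direction, with 2 higher and 2 lower peaks per the authors' deposited table. Ndufaf3 and Ndufaf4, which work together on the matrix arm, went opposite ways. Ndufaf3 read 1.16 in the WT and 1.88 in the cKO, and Ndufaf4 2.22 and 1.60, per the authors' deposited table (adjusted p 0.0308 and 0.0420). Ndufaf2 read 1.38 and 1.96, and the 5′ UTR peak of Ndufaf1 2.24 and 1.83, with adjusted p of 0.0507 and 0.136 per the authors' deposited table. Ndufaf4 was lower in the separate lists too (2.09 in WT, 1.64 in cKO).

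Complexes II and III had no lower peak among the listed differential peaks. In complex II, 2 of the 4 genes with a peak were listed. Sdhd, a membrane anchor of succinate dehydrogenase, read 0.82 in the WT and 1.27 in the cKO per the authors' deposited table (difference 0.45, adjusted p 0.000293). The flavoprotein Sdha had an exonic peak at 0.43 and 0.90 and a 3′ UTR peak at 0.49 and 0.82, with adjusted p of 0.0531 and 0.0779 per the authors' deposited table. The strongest Sdha peak, elsewhere in the 3′ UTR and not listed as differential, was lower in the cKO in the separate lists (1.97 in WT, 1.62 in cKO). In complex III, which passes electrons to cytochrome c, 7 of 8 subunits had a listed peak, all higher, with a median difference of 0.38 per the authors' deposited table. Uqcrb, a small subunit, read 1.52 and 1.99 (0.48, adjusted p 2.85e-06 per the authors' deposited table). The other subunits past an adjusted p of 0.05 per the authors' deposited table were Uqcr10 (1.16 and 1.54), Uqcrh (1.03 and 1.35) and Uqcrq (1.41 and 1.60). The core proteins Uqcrc1 (1.67 and 2.12) and Uqcrc2 (1.15 and 1.55) and the small subunit Uqcr11 (1.13 and 1.37) did not pass it, at adjusted p of 0.0690, 0.0554 and 0.152 per the authors' deposited table. Of the assembly factors, Uqcc2 was listed, at 1.15 and 1.47 (adjusted p 0.0301 per the authors' deposited table).

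Complex IV, cytochrome oxidase, had 9 listed genes, of 16 with a cKO peak. Over all coding genes with a peak the listed share was 54.8%. The 9 listed peaks were all higher in the cKO, 8 of them at adjusted p below 0.05 per the authors' deposited table (median difference 0.37). Cox4i1, the common form of subunit 4, read 1.01 in the WT and 1.42 in the cKO (0.41, adjusted p 2.62e-15 per the authors' deposited table). Cox8a, a small membrane subunit, read 0.67 and 1.10 (0.43, adjusted p 1.39e-11 per the authors' deposited table). Cox6b1 followed at 0.77 and 1.14 and Cox7b at 0.91 and 1.29, with adjusted p of 1.12e-06 and 8.31e-06 per the authors' deposited table. The remaining differences past the threshold per the authors' deposited table were Cox6a1 (1.30 and 1.60), Cox6c (1.2 and 1.38), Ndufa4l2 (0.81 and 1.30), a relative of the complex IV subunit Ndufa4, and Cox7a2l (2.11 and 2.25), which links complexes III and IV. Ndufa4l2 also had a stronger, exonic WT peak at 2.17, while its only cKO peak was the one in the 3′ UTR. Cox7a2l had the strongest peak of the 9 and the smallest difference, 0.13, per the authors' deposited table. Among matched complex IV peaks not listed as differential, those of Cox4i2 (2.28 in WT, 1.90 in cKO) and Cox7c (1.46 and 1.39) were lower. Those of Cox5b, Cox7a1, Cox7a2 and Ndufa4 were higher.

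Complex V, the ATP synthase, had 15 listed genes, of 17 with a peak. They had 15 peaks per the authors' deposited table, all annotated there to 3′ UTRs. All 15 peaks were higher in the cKO, 14 of them at adjusted p below 0.05 (median difference 0.39). Atp5g2 had the smallest adjusted p of any member. Its peak at chr15:102662864-102664748 read 1.33 in the WT and 2.12 in the cKO (0.80, adjusted p 2.08e-23 per the authors' deposited table). Only 10 bases of that peak lay in its assigned transcript, and the WT peak list annotated the matching peak as exonic. Atp5g1, Atp5g2 and Atp5g3 encode the same mature c subunit of the rotor ring. Atp5g1 read 0.51 and 1.22 and Atp5g3 1.37 and 1.76, with adjusted p of 1.25e-06 and 0.0116 per the authors' deposited table, so all genes of the ring were higher. Atp5a1 and Atp5b, the alpha and beta subunits of the catalytic head, read 0.85 and 1.22, and 1.47 and 1.80, with adjusted p of 7.82e-06 and 0.000289 per the authors' deposited table. Of the central stalk, Atp5d read 1.34 and 1.76 and Atp5e 1.26 and 1.60, with adjusted p of 2.53e-06 and 3.67e-06 per the authors' deposited table. Stalk and membrane subunits past the threshold per the authors' deposited table were Atp5k (1.39 and 1.88), Atp5j (1.40 and 1.98), Atp5pb (0.94 and 1.35), Atp5md (1.75 and 2.22), Atp5j2 (1.76 and 2.00), Atp5mpl (1.85 and 2.15) and Atp5h (1.51 and 1.71). Atp5o, at 1.47 and 1.74, did not pass it (adjusted p 0.121 per the authors' deposited table), and part of its peak overlaps the other gene called Atp5o.

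**Figure D3:**
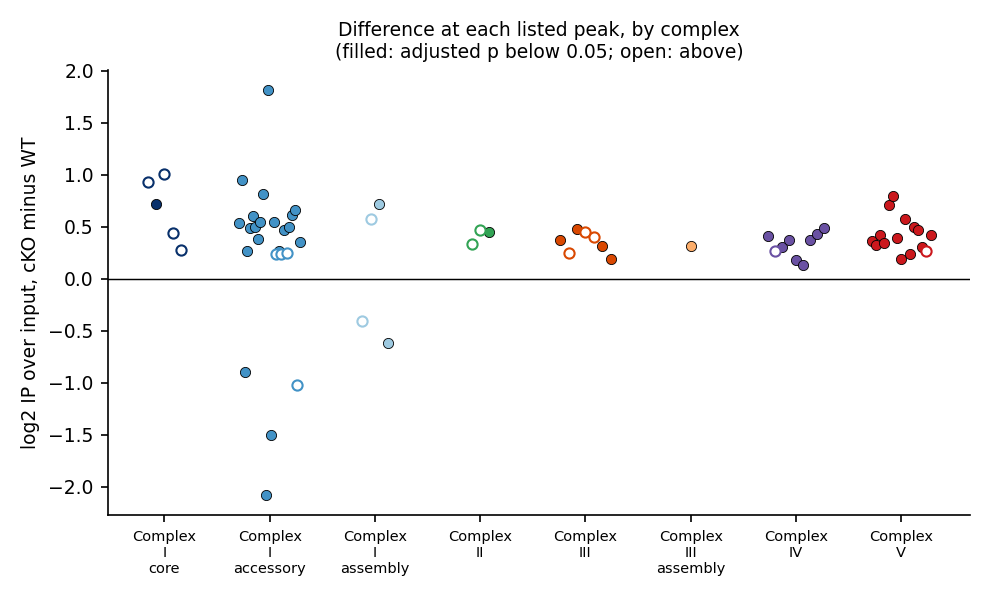
Difference in log2 IP over input, cKO minus WT (vertical axis), at each of the 68 listed differential peaks, by complex and assembly group (horizontal axis), with filled points for an adjusted p below 0.05. All points of complexes II to V lie above 0, and the 6 below 0 belong to complex I genes.

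The same direction was common among other genes with peaks of similar strength, transcript length and abundance. By quintile of mean log2 IP over input, the share of all listed peaks that were higher in the cKO was 54.6%, 62.1%, 71.3%, 42.0% and 14.5% from the weakest to the strongest per the authors' deposited table. Members had 3 of 5, 13 of 14, 20 of 21 and 26 of 28 higher in the weakest to the second strongest quintile and no peak in the strongest. Members thus had no peak in the quintile with the lowest share, and in the next one 26 of 28 of their peaks were higher where most listed peaks were lower. Members were also short and abundant, and 55 of their 68 peaks lay in the shortest quintile of transcripts (up to 1607 bases) and 47 in the highest quintile of input (from 16.6 FPKM). Among 3′ UTR peaks in the middle quintiles of strength, 58 of 59 peaks of members were higher, against 65.3% of all. When the shortest transcripts alone were kept, the counts were 51 of 51 and 77.5%, and with the highest input as well they were 40 of 40 and 88.5%. In this last set, genes that were neither members nor cytosolic ribosomal protein genes had 276 of 323 peaks higher (85.4%), and cytosolic ribosomal protein genes had 60 of 62. The part of peak strength, transcript length and RNA abundance in the direction was not tested further.

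**Figure D4:**
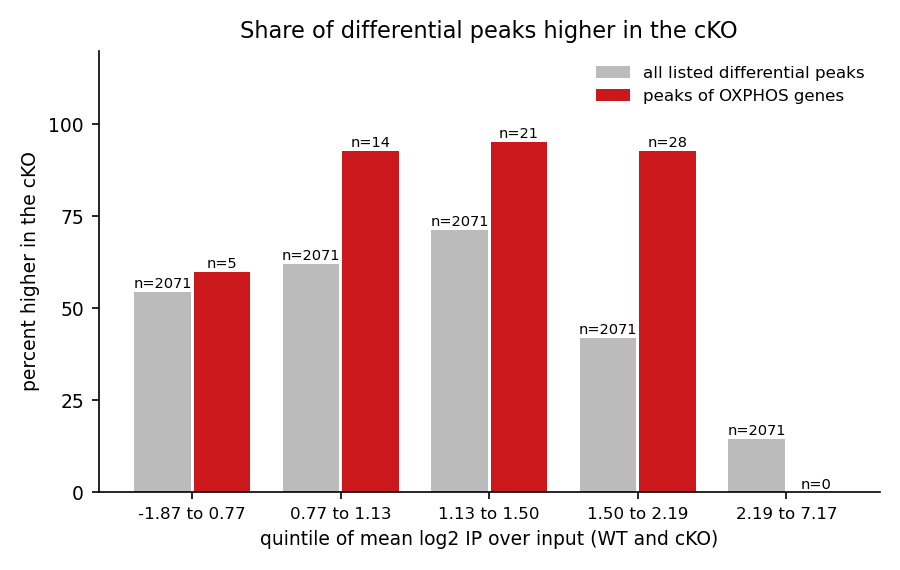
Percent of listed differential peaks that were higher in the cKO (vertical axis, bars from 0) by quintile of mean log2 IP over input (horizontal axis), for all listed peaks in grey and for oxidative phosphorylation genes in red, with the number of peaks above each bar. The grey share falls to 14.5% in the strongest quintile, where the genes of oxidative phosphorylation have no peak.

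Peaks covered large parts of these short messages. The transcripts under members' WT 3′ UTR peaks had a median length of 799 bases, against 3337 for all WT 3′ UTR peaks, and the exonic part of the peak covered a median of 33.0% of the transcript, against 11.8%. A stop codon lay inside 62.1% of members' WT 3′ UTR peaks and 30.2% of all. Peaks annotated to the 3′ UTR in these genes thus often reach into coding sequence, as in the Atp5j and Atp5g1 stretches shown above. GGAC, searched on the strand of the transcript and overlapping no other motif searched, was present in 68.0% of members' WT 3′ UTR peaks and in 64.9% of all. Among WT 3′ UTR peaks whose exonic length lay between the quartiles of members, 206 and 375 bases, the shares were 63.5% of 52 and 56.0% of 6057.

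Input RNA of these genes was close between genotypes. Input values were held for 63 members, those with a listed differential peak, all at a mean of at least 1 FPKM. The background, called all genes here, was the 6079 genes with a listed differential peak and an input value at that level. On the scale of log2(FPKM + 1), the cKO minus WT difference had a median of -0.01 over members and -0.02 over all 6079 genes. Input was higher in 31 members and lower in 32, where 45.8% of all genes were higher. A 1.2-fold difference was reached upward by 8 members and downward by none, with backgrounds of 9.71% and 11.0% of all genes. None reached 1.5-fold in either direction, where 1.46% of all genes were higher and 1.66% lower by that much. The plain ratio of FPKM, without the added 1, put 9 members past 1.2-fold upward and 2 downward, Atp5g3 and Ndufaf3 (all genes 13.5% and 15.4%). It put Ndufa4l2 past 1.5-fold upward, at a ratio of 1.54, and no member past it downward (all genes 2.63% and 2.85%). In the authors' deposited table each of the 63 had a q-value of 1 for the input difference, and the smallest p was 0.337, for Ndufa4l2. The input library is also the denominator of the peak values, so the input and peak differences share samples and are given side by side without a test of their relation.

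The 8 members past 1.2-fold on the log2(FPKM + 1) scale belonged to several complexes. Ndufa4l2 had 10.2 FPKM in WT and 15.7 in cKO input, a difference of 0.57 on the log2 scale. Cox8a, the most abundant member, went from 147 to 191 FPKM (0.38), and Uqcrh, the hinge protein of complex III, from 35.5 to 46.4 (0.38). Ndufa6 went from 30.7 to 38.6 FPKM (0.32) and Atp5g2 from 46.0 to 57.4 (0.31). Atp5mpl had 17.3 and 21.5 FPKM (0.30), Cox7a2l 119 and 146 (0.29) and Uqcr11 29.1 and 35.4 (0.28). The furthest in the other direction was Atp5g3, at 27.4 and 22.7 FPKM (-0.26), just short of 1.2-fold on that scale. For c subunit genes, then, Atp5g2 was higher and Atp5g3 lower in the cKO, and Atp5g1 had 5.50 and 5.43 FPKM.

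By complex, the core subunits of complex I were slightly lower in the cKO in 5 of 5 genes, with a median of -0.13. Among them were Ndufv1 (12.9 and 11.3 FPKM, -0.18), Ndufs3 (12.5 and 11.0, -0.17), Ndufv2 (17.9 and 16.3, -0.13) and Ndufs1 (3.21 and 3.19, -0.01). Accessory subunits had 8 higher and 12 lower, with a median of -0.03. Ndufa1, the most abundant of them, had 135 and 125 FPKM, and the lowest differences were in Ndufc2 (29.4 and 24.8 FPKM, -0.24) and Ndufa10 (10.8 and 9.03, -0.24). Complex I assembly factors were low, from 1.53 to 5.17 FPKM in the WT, with Ndufaf1 at 4.34 and 5.29 and Ndufaf3 at 5.17 and 4.28. Sdhd had 67.7 and 74.7 FPKM and Sdha 24.2 and 23.0. Complex III had 4 higher and 3 lower (median 0.10), with Uqcrq at 67.2 and 78.9 FPKM and Uqcrc1 at 12.8 and 11.1. Complex IV had 7 of 9 higher (median 0.11), among them Cox4i1 at 124 and 134 FPKM and Cox6c at 20.0 and 23.6, while Cox6b1 had 116 and 115. Complex V had 7 higher and 8 lower (median -0.01), with Atp5b at 70.9 and 62.9 FPKM. No spread between cultures is known, so none of these small differences can be set against a replicate error. In bulk RNA, fewer cells of a type and less RNA per cell cannot be told apart.

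**Figure D5:**
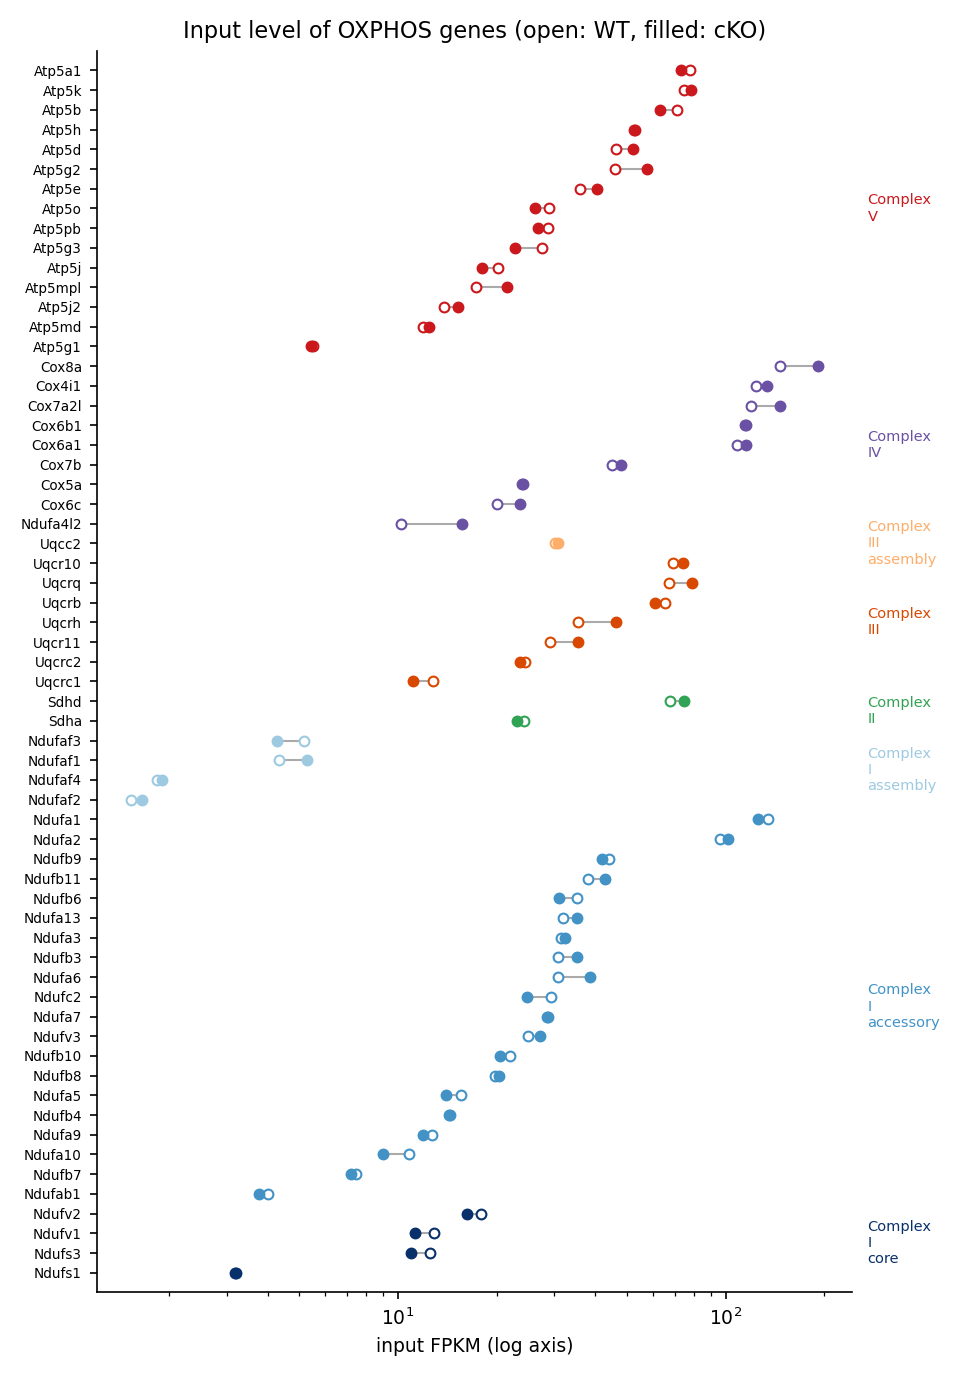
Input level in FPKM (horizontal log axis) of 62 of the 63 oxidative phosphorylation genes with a value, in the WT (open) and the cKO (filled), grouped by complex. The paired points lie close together, and the widest gap, 10.2 to 15.7 FPKM, is that of Ndufa4l2.

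Other gene lists of mitochondrial and general metabolism differed from one another in how their peaks and input stood. Cytosolic ribosomal protein genes, which are also short and abundant, had 81 higher and 6 lower listed peaks per the authors' deposited table. Unlike the genes of oxidative phosphorylation, their input was higher in the cKO in 70 of 71, with a median of 0.31 and 53 past 1.2-fold, although the difference between the lists was not tested. Mitochondrial ribosomal protein genes had 24 higher and 15 lower peaks per the authors' deposited table and a median input difference of 0.14, led by Mrpl54 at 12.8 and 18.1 FPKM. Citric acid cycle genes had 10 of 10 listed peaks higher per the authors' deposited table, with a median input difference of -0.06. Their furthest gene was Dlat, of the pyruvate dehydrogenase complex, at 6.96 and 5.69 FPKM. Assembly factors outside the naming rule, with cytochrome c, had 13 higher and 14 lower peaks per the authors' deposited table and a median input difference of 0.01. Within that list Cycs, cytochrome c itself, had 18.2 and 13.9 FPKM and Cox14 11.4 and 15.0. Regulators of mitochondrial biogenesis had 8 higher and 11 lower peaks per the authors' deposited table, with a median input difference of -0.04. Of these, Esrra, a nuclear receptor that drives respiratory genes, had 6.15 and 4.24 FPKM, and Tfam, which packages mitochondrial DNA, had 3.92 and 3.29. Glycolysis genes had 20 higher and 7 lower peaks per the authors' deposited table and a median input difference of -0.06, with 7 of 17 higher and 2 past 1.2-fold in each direction. Among them Hk3 had 93.8 and 67.6 FPKM, Gapdh 64.6 and 51.3, and Pfkm 2.04 and 2.81.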

How the data were processed

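m6A sequencing covered 4 libraries, 1 IP and 1 input for each genotype, with groups taken from the labels' titles. Per the file headers, the deposited peak lists give log2 IP over input per peak with a p-value and adjusted p-value, and the authors deposited a table of differential peaks with the log2 values of both genotypes and their difference. That table was found to hold only p-values below 0.05. A gene table deposited by the authors adds input FPKM and p- and q-values for 7307 genes with a listed differential peak. The genome was mm10, and edgeR, StringTie, ChIPseeker, HOMER, HISAT2 and fastp were used in roles not named, per the submitters' processing notes. Not given in the sources used here are the peak caller, the differential model, the scaling and the handling of reads shared with pseudogene copies.

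Peak starts count from 0 and are printed from 1. Identifiers matched GENCODE M21 in 99.8% of WT peaks. Symbols followed the files, which name 2 members differently from the annotation and 1 annotated symbol (Atp5s, not a member) otherwise. Overlap was computed with bedtools 2.31.1 on the same strand, at least 1 bp. Input differences are log2(FPKM + 1), cKO minus WT, at a mean of at least 1 FPKM, which understates the change of weakly expressed genes. Quintiles were cut over all listed peaks. Transcript sequence came from the identifier the files give for each peak. The mapping of peaks to transcript positions was tested on simulated transcripts, and the overlap step on a small constructed case. Intervals are exact Clopper-Pearson at 95%, cover counting error only, and treat peaks as independent, although some share a gene.

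With 1 library per group no test was run, and every p-value is the authors'. Named are members with an adjusted p below 0.05, up to 4 per complex by input difference, the 5 most abundant, the 5 with the strongest peak per genotype, those with peaks in both directions, up to 3 genes of each related list and Mettl3. Members without a peak and those at the edge of a count were named after their values were seen. Members and lists were chosen with earlier results of these data known. The values of 1 member are not reported here, while counts include it.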

Additional observations from a re-analysis of the deposited data

How the results depend on the processing

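The settings changed the threshold on peaks, the overlap, the region, the pseudocount, the filter on FPKM, the scaling and the members included, and 63 of 75 values stayed within the counting interval, within 1.5 times the count or within 0.1 on the log2 scale. The share of coding members with a WT peak was 82.5% when a log2 IP over input of at least 1 was asked for. The cKO share stayed at 93.8%, so the genotypes had equal shares only without that threshold. The share of all coding genes at that threshold is not given here. The cKO median was 1.65 with the strongest peak of each gene alone. Asking for an overlap of 50% of both peaks left 65.9% of members' WT peaks shared, against 48.8% of all WT peaks. Among differential peaks, adjusted p below 0.05 with a difference of at least 1 left 3 peaks, 33.3% of them higher. The median input difference was 0.12 in the 5 genes with a lower peak. The cause of these movements was not tested, apart from the smaller number of peaks or genes. Settings chosen after seeing the data gave 98.3% higher in 3′ UTR peaks of middle strength, 100% in 51 of the shortest transcripts and 100% in the 40 that also had the highest input. They gave 69.0% higher in matched peaks that overlapped no listed differential peak. Without a pseudocount, 2 members were past 1.2-fold lower and 1 past 1.5-fold higher in the input. The filter at a mean of 5 FPKM gave no value for complex I assembly factors, since none of them reached it. Centring on the median of all genes moved the members' median input difference to 0.01, and equal totals to -0.05, so it has no stable sign.

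No paired analysis was possible because each group has 1 library and the labels give no replicate numbers. Leaving out a library was not possible for the same reason. Depth limits every value to an unknown degree, since total counts were not analysed here.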
